A study of Mus musculus with 2 samples.

Results

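The 10 genes described here, H19, Dlk1, Meg3, Peg3, Mest, Plagl1, Peg10, Cdkn1c, Grb10 and Ndn, form a set of imprinted growth genes. They were taken by symbol from a deposited expression table of 23236 rows, and all 10 were found there, with 1 row each. The study compared neonatal mouse cultures that the submitters label as activated satellite cells, the stem cells of skeletal muscle, grown out of muscle from the back and the hind limbs. The WT group is 1 polyA RNA-seq library from wild-type neonates. The Pax7 KO group is 1 library from neonates in which, per the labels' protocols, floxed Pax7 alleles were deleted by a tamoxifen-inducible Cre driven from Pax7 (Pax7CreER/+, Pax7flox/flox), with tamoxifen at 75 µg per g of body weight on 5 consecutive days from day 5. The sources used here do not say whether WT animals received tamoxifen or carried these alleles, nor how many animals went into a library. Both groups were grown in the same type of serum-rich medium with bFGF after enrichment by sedimentation, with no surface marker sort named.

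Imprinted genes are expressed mainly from the copy inherited from the mother or mainly from the copy inherited from the father. In mouse, many of them act on fetal and postnatal growth, tend to be expressed together, and decline after birth. H19, Meg3, Cdkn1c and, in most tissues, Grb10 are known to be expressed from the maternal copy. Dlk1, Peg3, Mest, Plagl1, Peg10 and Ndn are known to be expressed from the paternal copy. In muscle, several of them are known from satellite cells, interstitial cells and regenerating fibres, and Dlk1 also as an inhibitor of fat cell formation. The libraries do not separate the parental copies, so imprinting itself was not measured.

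The deposited unit is FPKM, a fragment count divided by transcript length and library size, which allows levels of different genes to be compared. With 1 library per genotype there is no spread between replicates, no test was possible and no p-value is given. Differences are given as the log2 ratio, log2((KO FPKM + 1) / (WT FPKM + 1)), and counted as 2-fold at a size of 1 or more. The median of the 11751 genes with a mean FPKM of 1 or more had a log2 ratio of 0.42, and a second value, called relative to the median gene, has that shift of 0.42 subtracted. Counting intervals (95%) are approximate, because fragments were estimated from the FPKM, and cover counting error only. Library depth estimated in this way was 25320000 fragments in WT and 21100000 in KO.

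Pax7 stood at 3.21 FPKM in the WT library and 0.769 FPKM in the KO library. The row covers the whole gene, and the labels do not say which part of it was deleted. The labelled cell type had its markers in both libraries, Myod1 among them at 90.4 and 17.9 FPKM, beside markers of other cell types. Of 8 satellite cell and myoblast markers, 5 were 2-fold lower, and their summed level was 268 FPKM in WT and 141 FPKM in KO. All 8 adipocyte markers were 2-fold higher, with sums of 242 and 1204 FPKM. Endothelial markers (6 genes) summed to 296 and 569 FPKM, with 1 gene 2-fold higher. The same count was found among 8 fibroblast and fibro-adipogenic progenitor markers, which summed to 205 and 307 FPKM, and among 6 smooth muscle and pericyte markers, which summed to 864 and 933 FPKM. The 5 leukocyte markers summed to 17.4 and 24.7 FPKM. Only 2 of them, Cd68 and Lyz2, had a mean FPKM of 1 or more, and neither was 2-fold different. These counts are as deposited, where 5.06% of all 11751 genes were 2-fold higher and 0.689% were 2-fold lower. Relative to the median gene, 5 satellite cell and myoblast markers were 2-fold lower. There, 7 adipocyte markers and 1 endothelial marker were 2-fold higher, and no marker of the remaining lists was. Of all genes, 1.35% were 2-fold higher and 1.45% lower on that scale. By summed level, the adipocyte list differed most between the libraries, and no marker was at the lowest listed value. Most satellite cell and myoblast markers and most adipocyte markers thus differed by 2-fold between the genotypes on both scales. The leukocyte sum was 1.42-fold higher in KO, and the smooth muscle and pericyte sum 1.08-fold higher. Without a pseudocount the median gene was 1.42-fold higher, so neither sum stood clearly above it. Single genes differed from these sums. Acta2, at 626 and 642 FPKM, made up most of the smooth muscle and pericyte sum. In that list Rgs5 was 2.50-fold and Pdgfrb 1.74-fold higher, and these 2 lay above the median gene and the other 4 below it. Cd68 and Lyz2 made up most of the leukocyte sum. Ptprc and Csf1r, both under 1 FPKM, were lower in KO, and Itgam, also under 1 FPKM, was higher. What part any of these lists had in the values of the imprinted genes below was not tested. In such bulk libraries, fewer cells of a type and less RNA per cell cannot be told apart.

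Several members carry microRNAs within their transcripts, and the sequences are shown because these microRNAs are the known small products of H19 (miR-675), Mest (miR-335) and Meg3 (miR-770). The mature RNAs are given 5′ to 3′ from RefSeq (GRCm38.p6), with the seed (bases 2 to 8) in capitals.
miR-675-5p: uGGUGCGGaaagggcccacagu
miR-675-3p: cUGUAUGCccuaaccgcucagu
miR-335-5p: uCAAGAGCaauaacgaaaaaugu
miR-335-3p: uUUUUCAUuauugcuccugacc
miR-770-5p: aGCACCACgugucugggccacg
miR-770-3p: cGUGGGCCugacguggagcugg
The 6 seeds were all different. The table has rows for Mir675, Mir335, Mir770 and Mir1906-2 at these loci, and all 4 were at the lowest listed value, 0.001, in both libraries. PolyA libraries do not measure mature microRNAs, so the host rows are the only reading of these loci here.

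The network genes were expressed in both libraries, and their levels spanned a wide range. H19, the long non-coding RNA of the H19-Igf2 cluster, had the highest level in both, 46.9 FPKM in WT and 57.4 FPKM in KO, above 92.1% and 90.9% of the 11751 genes. Cdkn1c in WT, at 2.27 FPKM, and Peg3 in KO, at 2.11 FPKM, were the lowest. From high to low the WT order was H19, Grb10, Mest, Meg3, Plagl1, Ndn, Peg10, Dlk1, Peg3 and Cdkn1c. In KO it was H19, Mest, Grb10, Ndn, Meg3, Plagl1, Dlk1, Peg10, Cdkn1c and Peg3. Counting intervals of neighbours in this order overlapped for Meg3 and Plagl1, Plagl1 and Ndn, and Peg3 and Cdkn1c in WT. In KO they overlapped for Ndn and Meg3, Plagl1 and Dlk1, and Peg10 and Cdkn1c. Mest, Ndn, Dlk1 and Cdkn1c stood higher in the KO order than in the WT order, H19 kept its place, and the other 5 stood lower.

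**Figure D1:**
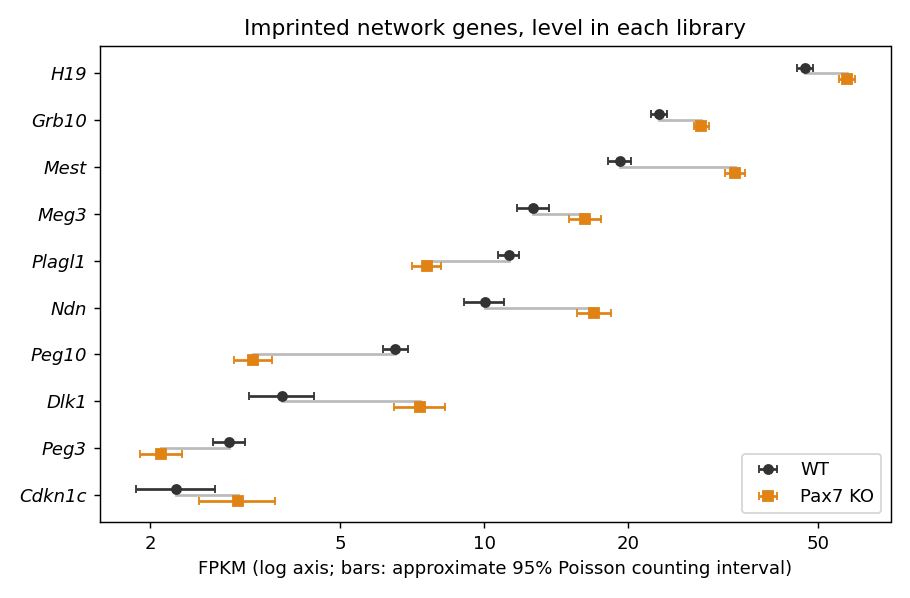
Level of each gene in FPKM (log axis) in the WT library (circles) and the Pax7 KO library (squares), with approximate 95% Poisson counting intervals. Peg10, Plagl1 and Peg3 lie lower in KO, and the other 7 genes lie higher as deposited, from H19 at 46.9 and 57.4 FPKM down to Cdkn1c at 2.27 and 3.06 FPKM, of which H19, Meg3, Cdkn1c and Grb10 lie lower relative to the median gene.

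None of the 10 genes differed by 2-fold between the libraries as deposited, against 5.06% of all 11751 genes that were 2-fold higher and 0.689% that were 2-fold lower. The members' log2 ratios ran from -0.81 to 0.81, with a median of 0.30, beside 0.42 for all genes. Relative to the median gene, 1 of 10 was 2-fold lower, Peg10, and none was 2-fold higher, where 1.45% of all genes were lower and 1.35% higher. Without a pseudocount and relative to the median gene, Peg10 and Plagl1 were 2-fold lower, where 2.6% of 11670 genes were. As deposited 7 of the 10 genes had a ratio above 0, and 3 of the 10, Dlk1, Mest and Ndn, lay above the median gene.

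**Figure D2:**
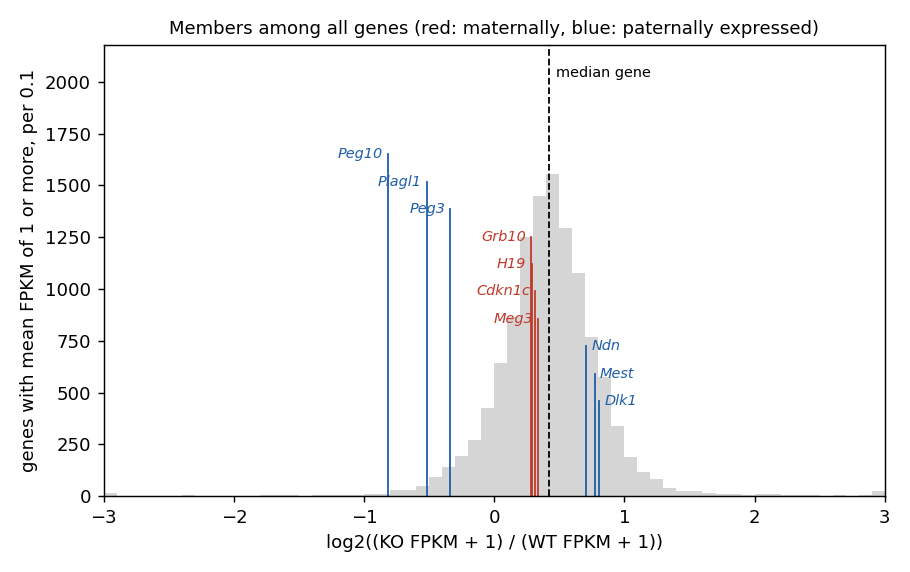
Distribution of the log2 ratio over the 11751 genes with a mean FPKM of 1 or more (grey bars, 0.1 wide; genes beyond -3 and 3 are in the end bars), with each imprinted gene as a line of arbitrary height. The 4 maternally expressed genes (red) lie between 0.28 and 0.34, just left of the median gene at 0.42 (dashed), and the 6 paternally expressed genes (blue) lie in 2 groups, from -0.81 to -0.34 and from 0.71 to 0.81.

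A trio of paternally expressed genes with known roles in growth control, Peg10, Plagl1 and Peg3, had lower values in KO. Peg10 (chromosome 6, 4697306 to 4710516 in mm9, the build of all gene coordinates here), a gene derived from a retrotransposon and required for the mouse placenta, was at 6.52 FPKM in the WT library against 3.28 FPKM in the KO library, 1.99-fold lower. Its log2 ratio of -0.81 came to -1.23 against the median gene, and 0.842% of all genes had a lower one. About 1101 and 462 fragments stood behind these levels, and without a pseudocount the ratio had a counting interval of -1.15 to -0.83.

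Plagl1 (chromosome 10, 12810594 to 12851501) encodes a zinc finger factor that restrains cell division and, in mouse, regulates other imprinted genes. It was at 11.3 FPKM in the WT library against 7.58 FPKM in the KO library, 1.49-fold lower. The log2 ratio of -0.52, or of -0.94 against the median gene, was low among all genes, of which 1.68% had a lower one. Its counting interval without a pseudocount was -0.69 to -0.45. Its mouse targets are known to include Cdkn1c and the H19-Igf2 cluster, and Cdkn1c, H19 and Igf2 had log2 ratios of 0.31, 0.29 and 0.88 as deposited. Relative to the median gene they stood at -0.11, -0.13 and 0.45, so the direction of Cdkn1c and H19 flips with this scaling.

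Peg3 (chromosome 7, 6658671 to 6683130) encodes a large zinc finger protein, also called PW1, that marks satellite cells and interstitial progenitors of muscle in mouse. It was at 2.93 FPKM in the WT library against 2.11 FPKM in the KO library, with a log2 ratio of -0.34, or -0.76 relative to the median gene. The antisense row Peg3as at the same locus was at 4.74 and 3.80 FPKM, a log2 ratio of -0.26. The sources used here name no strand for the counting, and shared stretches of exon were not examined. How well reads of Peg3 and Peg3as were separated is therefore not known. Their sum was 7.67 FPKM in the WT library against 5.91 FPKM in the KO library, and had a log2 ratio of -0.33.

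In the authors' deposited table of lower genes, Peg10 appears with a KO/WT fold of 0.503 and Plagl1 with a fold of 0.673. No source used here gives the rule behind that list, and it rests on the same 2 libraries. It holds 2.49% of the 11751 genes, and the list of higher genes holds 5.2% and none of the 10. The 2 lists differ in their observed limits. The lowest fold in the higher list is 1.952, and the highest fold in the lower list is 0.700. Of the 382 genes in the lower list, 185 were less than 2-fold lower. Dlk1, with a fold of 1.948, lay just under the lowest fold of the higher list. Peg3, with a fold of 0.720, was in neither list and lay above the highest fold of the lower list.

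Dlk1, Mest and Ndn, also paternally expressed, had higher values in KO. Dlk1 (chromosome 12, 110691033 to 110701546) encodes a transmembrane protein with EGF repeats, also called Pref-1, that holds back adipocyte differentiation. It was at 3.77 FPKM in the WT library against 7.35 FPKM in the KO library, 1.95-fold higher, with a log2 ratio of 0.81, or 0.39 relative to the median gene. The counting interval without a pseudocount was 0.67 to 1.25, and 87.5% of all genes had a lower ratio. The adipocyte markers were higher beside it, with a median log2 ratio of 2.36.

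Mest (chromosome 6, locus 30683506 to 30846760) encodes a membrane protein of the alpha/beta hydrolase fold that rises in expanding mouse fat. It was at 19.2 FPKM in the WT library against 33.5 FPKM in the KO library, 1.74-fold higher, with a log2 ratio of 0.77, or 0.35 relative to the median gene. Copg2, a coatomer subunit gene that overlaps Mest, was at 3.23 and 6.25 FPKM, a log2 ratio of 0.78. The sum of both rows had a log2 ratio of 0.80. Without a named strand, how well reads of Mest and Copg2 were separated is not known. Ndn (chromosome 7, 69493163 to 69494813) encodes necdin, a MAGE family protein that restrains division and favours muscle differentiation in mouse. It was at 10.0 FPKM in the WT library against 17.0 FPKM in the KO library, 1.70-fold higher, with a log2 ratio of 0.71, or 0.29 relative to the median gene. By construction of the shift to the median gene, Dlk1, Mest and Ndn lay less far above that gene than above equality.

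H19, Meg3, Cdkn1c and Grb10, the maternally expressed members, lay close together. H19 (chromosome 7, 149761437 to 149764051) had a log2 ratio of 0.29, with a counting interval without a pseudocount of 0.22 to 0.37. Grb10 (chromosome 11, 11830502 to 11937423) encodes an adaptor that dampens insulin and IGF receptor signalling. It was at 23.2 FPKM in the WT library against 28.4 FPKM in the KO library, a log2 ratio of 0.28. Meg3 (chromosome 12, 110779206 to 110809939), a long non-coding RNA, was at 12.7 and 16.3 FPKM, a log2 ratio of 0.34. Cdkn1c (chromosome 7, 150644244 to 150646955) encodes p57, an inhibitor of cyclin-dependent kinases that accompanies cell cycle exit in muscle. It was at 2.27 FPKM in the WT library against 3.06 FPKM in the KO library, a log2 ratio of 0.31 that rested on about 109 and 122 fragments.

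The 4 maternally expressed genes were thus higher in KO as deposited by 0.28 to 0.34, and stood at -0.14 to -0.08 relative to the median gene, so their direction flips with the scaling. Their counting intervals left out the median gene for H19 and Grb10 and held it for Meg3 and Cdkn1c. The 6 paternally expressed genes ranged from -0.81 to 0.81. Among 20 other imprinted genes above the expression limit, the 9 listed as maternally expressed ranged from 0.27 to 1.29. The 11 listed as paternally expressed ranged from -0.42 to 1.15. Whether each of these is imprinted in such cultures was not measured. The members are few and were not drawn at random, so the narrow range of 4 genes is a description only.

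Neighbours of the members in their imprinted clusters were compared next, since genes of a cluster share control regions. Of 36 other imprinted genes listed, 35 were in the table and 20 had a mean FPKM of 1 or more. Zfp264 was not analysed here. Of the 20, 2 were 2-fold higher and none 2-fold lower as deposited, and none was 2-fold different relative to the median gene. Their median log2 ratio of 0.45 lay 0.03 above that of all genes. The 11 that share a cluster with a member had a median of 0.68, and the 9 elsewhere a median of 0.44. Another 12 neighbours had a mean under the limit, with values of 0.0487 to 1.09 FPKM in single libraries. These were Slc22a18, Ascl2, Rtl1, Dio3, Zim1, Usp29, Asb4, Ppp1r9a, Klf14, Magel2, Mkrn3 and Snurf.

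Of 11 pairs of genes compared within clusters, Peg10 and Sgce differed most. Sgce encodes epsilon-sarcoglycan, a membrane protein linked to the dystrophin complex, is paternally expressed too, and starts next to Peg10 on the opposite strand. In the deposited coordinates 101 bases separate the 2 genes. Sgce was at 9.67 FPKM in the WT library against 17.4 FPKM in the KO library, a log2 ratio of 0.79, or 0.37 relative to the median gene, while Peg10 lay below 0 and below the median gene. Sgce over Peg10 was therefore 1.48 in WT and 5.30 in KO. A ratio of this kind within a library does not depend on how libraries are scaled. It was 3.57-fold higher in KO, with an approximate counting interval of 3.03 to 4.22. The pairs given here were chosen after their values were seen.

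**Figure D3:**
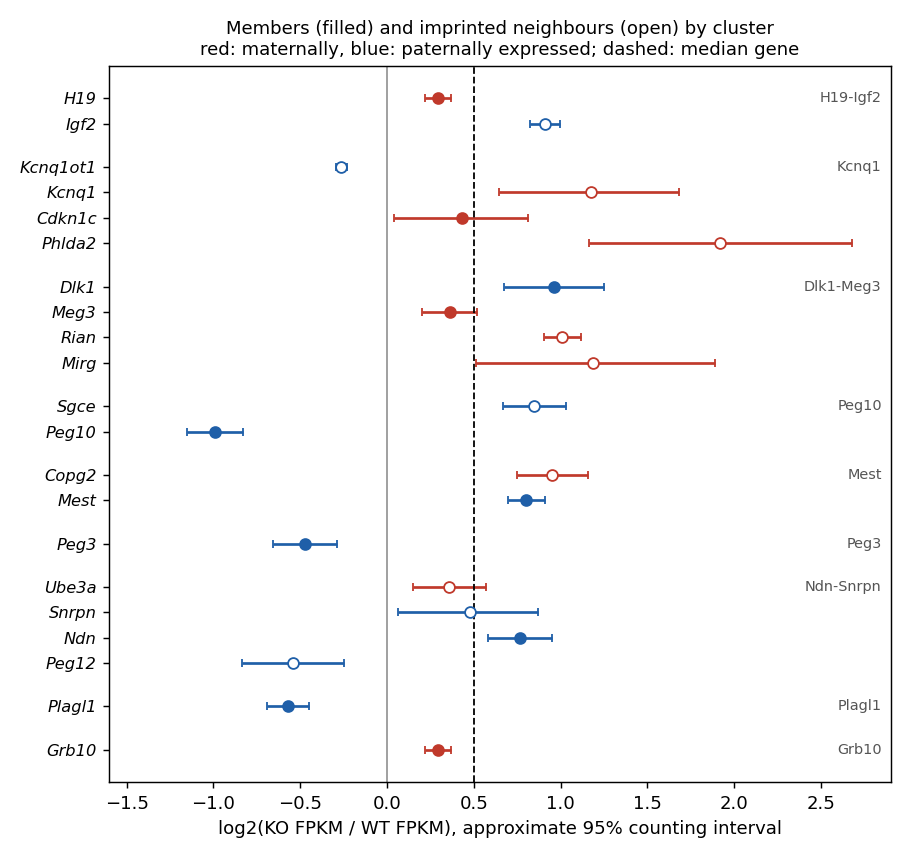
Log2 ratio without a pseudocount (x axis) for the members (filled) and their imprinted neighbours with a mean FPKM of 1 or more (open), grouped by cluster, with approximate 95% counting intervals. Red is maternally and blue paternally expressed, and the dashed line is the median gene at 0.50. Sgce and Peg10 lie on opposite sides of the line at 0, as do Ndn and Peg12.

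In the Dlk1-Meg3 cluster, Rian, a non-coding RNA that hosts small nucleolar RNAs, and Mirg, which hosts microRNAs, lie downstream of Meg3 and are maternally expressed with it. Rian was at 5.50 FPKM in the WT library against 11.1 FPKM in the KO library, a log2 ratio of 0.89. Mirg was at 0.887 and 2.01 FPKM, a log2 ratio of 0.68. Both ratios were above that of Meg3. Rian over Meg3 was 0.434 in WT and 0.681 in KO, 1.57-fold higher with a counting interval of 1.38 to 1.79. Dlk1 over Meg3 was 0.298 and 0.452, 1.52-fold higher with an interval of 1.21 to 1.90.

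In the H19-Igf2 cluster, Igf2, the fetal growth factor that shares enhancers with H19, was at 18.0 FPKM in the WT library against 33.8 FPKM in the KO library, a log2 ratio of 0.88. Igf2 over H19 was 0.384 in WT and 0.590 in KO, 1.54-fold higher with a counting interval of 1.42 to 1.66. Of the other imprinted genes, Igf2 had levels nearest to those of Mest by distance over log2(FPKM + 1) of the 2 libraries, 0.0914, and Sgce nearest to Ndn, 0.0558. With 2 libraries this says only that both levels were close. The nearest to Peg3, and to Peg10, was Peg12, at distances of 0.43 and 0.63. For Dlk1 it was Copg2, for Meg3 Sgce, for Cdkn1c Zrsr1, for Plagl1 Kcnq1ot1, for Grb10 Igf2 and for H19 H13, at distances from 0.11 (Cdkn1c) to 0.85 (H19).

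Near Cdkn1c, Phlda2, which restrains placental growth in mouse, was at 1.07 FPKM in the WT library against 4.06 FPKM in the KO library, 3.78-fold higher, with a log2 ratio of 1.29 that rested on about 21 and 65 fragments. Phlda2 over Cdkn1c was 0.474 and 1.33, 2.80-fold higher with a counting interval of 1.60 to 4.89. Kcnq1ot1, the paternally expressed RNA that silences this cluster in cis, was at 8.42 and 7.01 FPKM, a log2 ratio of -0.23. Kcnq1, a potassium channel gene that overlaps it, was at 0.646 and 1.46 FPKM, a log2 ratio of 0.58. Without a named strand, how well reads of these 2 rows were separated is not known. Their sum had a log2 ratio of -0.088.

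Beside Ndn, Peg12, a Frat family gene, was at 3.97 FPKM in the WT library against 2.72 FPKM in the KO library, a log2 ratio of -0.42, while Ndn was higher. Peg12 over Ndn was 0.396 in WT and 0.160 in KO, 2.47-fold lower in KO. Peg12 is in the lower list of the authors' deposited table, with a fold of 0.686. Further away in that cluster, Snrpn, a spliceosomal protein gene, had a log2 ratio of 0.33 and Ube3a, a ubiquitin ligase gene, of 0.27. Outside the members' clusters, Airn, the paternally expressed antisense RNA that silences Igf2r, was at 1.14 and 3.73 FPKM, a log2 ratio of 1.15 that rested on about 25 and 67 fragments. Igf2r, the receptor that clears IGF2, overlaps it and was at 6.68 and 11.4 FPKM, a log2 ratio of 0.69. How well reads of Airn and Igf2r were separated is not known either. Their sum had a log2 ratio of 0.87, under the 2-fold limit that the Airn row passed. Igf2r makes up most of that sum, so it says little about Airn alone. Both Phlda2 and Airn are listed as higher in the authors' deposited table, with folds of 3.78 and 3.29.

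**Figure D4:**
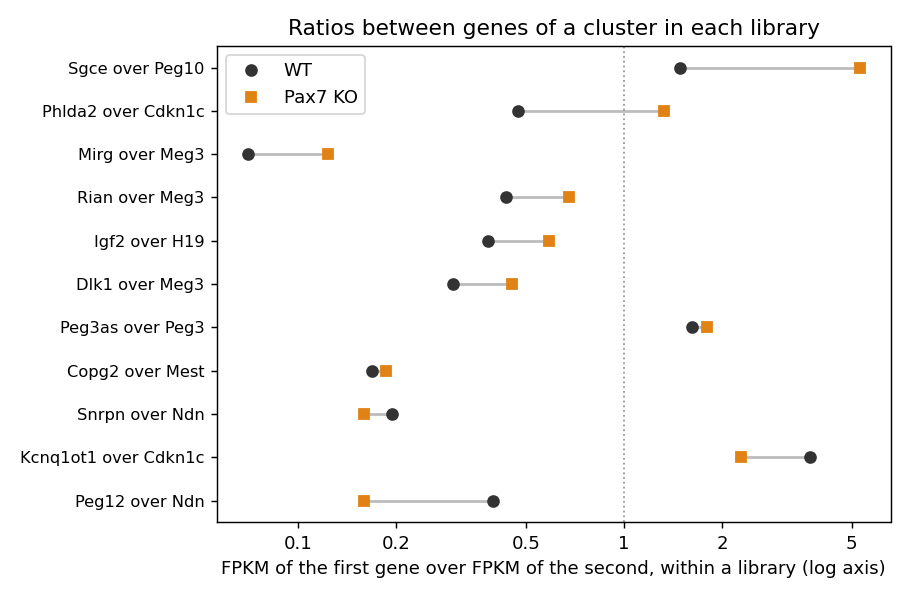
FPKM of a gene over FPKM of a gene of the same cluster, within the WT library (circles) and within the Pax7 KO library (squares), on a log axis. Sgce over Peg10 differs most, at 1.48 and 5.30, and Copg2 over Mest least, at 0.168 and 0.187.

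Close relatives of the members that are not imprinted in this way gave a further comparison. None of 8 relatives above the limit was 2-fold different, and their median log2 ratio was 0.38. As deposited all 8 lay above 0, and 3 lay above the median gene. Cdkn1a, which encodes the CDK inhibitor p21, was at 98.9 FPKM in the WT library against 163 FPKM in the KO library, a log2 ratio of 0.72. It was thus far more abundant than Cdkn1c in both libraries, 43.6 times in WT and 53.4 times in KO. Of the necdin relatives, Maged2 had a log2 ratio of 0.85, Magee1 of 0.47 and Maged1 of 0.38. In the IGF and insulin pathway, which Grb10 and Igf2 act on, none of 9 genes above the limit was 2-fold different, and the median log2 ratio was 0.42, equal to that of all genes to 2 decimals. As deposited 8 of the 9 lay above 0, and 5 lay above the median gene. As deposited the highest log2 ratios were those of Pik3r1, a PI3 kinase subunit, at 0.70 and Igf2bp2, which binds Igf2 mRNA, at 0.56. Relative to the median gene these stood at 0.28 and 0.14. The 1 gene below 0 was Irs1, an adaptor of the insulin and IGF receptors named after its values were seen, at 2.08 and 1.56 FPKM. Its log2 ratio was -0.27 as deposited and, at -0.69, the farthest of the 9 from the median gene. The IGF receptor gene Igf1r had a log2 ratio of 0.45, and Igf1, which encodes a ligand of that receptor, of 0.44.

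The promoters of members with opposite ratios are shown for their base composition, Peg3 and Plagl1 from those lower in KO and Dlk1 and Mest from those higher. RefSeq promoter windows (GRCm38.p6, 300 bases around the start) were matched for 7 of the 10 genes, in 11 windows; H19, Peg10 and Cdkn1c were not matched. Each is given 5′ to 3′ on the gene's strand, with CpG dinucleotides in capitals.
Peg3 chr7:6730370-6730669, minus strand: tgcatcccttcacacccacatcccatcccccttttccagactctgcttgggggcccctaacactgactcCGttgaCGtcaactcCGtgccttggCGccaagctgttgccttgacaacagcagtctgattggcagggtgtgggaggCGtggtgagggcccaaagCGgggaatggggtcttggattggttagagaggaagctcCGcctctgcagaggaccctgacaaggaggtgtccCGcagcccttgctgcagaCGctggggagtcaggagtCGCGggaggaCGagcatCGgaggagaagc
Plagl1 chr10:13090582-13090881, plus strand: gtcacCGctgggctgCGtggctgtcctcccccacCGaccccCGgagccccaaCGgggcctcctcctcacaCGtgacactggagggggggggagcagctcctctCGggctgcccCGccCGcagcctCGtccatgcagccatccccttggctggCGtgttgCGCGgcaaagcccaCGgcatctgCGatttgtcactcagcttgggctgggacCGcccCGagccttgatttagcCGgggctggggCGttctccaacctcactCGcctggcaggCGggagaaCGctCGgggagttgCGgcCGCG
Dlk1 chr12:109452573-109452872, plus strand: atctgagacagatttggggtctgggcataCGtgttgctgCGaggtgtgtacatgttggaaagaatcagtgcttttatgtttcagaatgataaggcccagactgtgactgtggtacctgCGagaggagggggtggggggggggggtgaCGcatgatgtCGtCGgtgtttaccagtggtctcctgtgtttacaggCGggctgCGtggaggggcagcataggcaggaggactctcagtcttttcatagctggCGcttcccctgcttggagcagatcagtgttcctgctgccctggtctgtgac
Mest chr6:30737800-30738099, plus strand: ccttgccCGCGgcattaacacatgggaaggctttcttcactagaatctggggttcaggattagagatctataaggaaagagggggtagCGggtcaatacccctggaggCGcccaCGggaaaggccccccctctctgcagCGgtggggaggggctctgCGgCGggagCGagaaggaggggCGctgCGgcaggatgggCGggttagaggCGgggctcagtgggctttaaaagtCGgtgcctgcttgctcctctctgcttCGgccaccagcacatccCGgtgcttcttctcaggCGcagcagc
The observed over expected CpG ratio was 0.463 for Peg3, 0.696 for Plagl1, 0.427 for Dlk1 and 0.590 for this Mest window, beside a median of 0.384 over 32851 windows. Over all 11 windows of the members the ratio ran from 0.0588 in a Meg3 window to 0.973 in a Grb10 window. A Mest window not shown, at 0.327, was also under the median of all windows, and the other 9 were above it. The Peg3 window shares 263 bases with that of Usp29, a ubiquitin protease gene that starts on the opposite strand. Usp29 was at 0.139 FPKM in the WT library against 0.187 FPKM in the KO library. The E-box CAGCTG, a form that Myod1 prefers, was found in 1 of the 11 windows, a Mest window not shown, and in 16.3% of all windows. TATAAA, searched on both strands, was found in 1, a Meg3 window, and in 13.6% of all. The 11 windows include a pair of Mest windows that overlap, and a match of letters is a description of the sequence only.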

How the data were processed

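The authors deposited FPKM values with 1 column per genotype, per the file headers, and a ratio (fold) of KO over WT FPKM in their lists of 713 higher and 382 lower genes. Cuffdiff 2.1.1, Cufflinks 2.1.1 and TopHat2 2.0.9 are named with mm9, per the submitters' processing notes, without their roles; annotation, strand and scaling between libraries are not given in the sources used here. Rows of the 1 repeated symbol were summed. Start coordinates count from 0 and were raised by 1, since end minus start equalled the RefSeq length at 6923 of 17032 loci and fell 1 short at 436. A locus shared by overlapping genes is given whole.

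Log2 ratios used a pseudocount of 1, which understates changes of low genes, and genes were kept at a mean FPKM of 1 or more. Library depth was taken as the step at which FPKM times length of 1108 (WT) or 998 (KO) genes with 1 annotated transcript fell on whole fragments; the mean cosine was 0.486 and 0.497, where exact multiples give 1, so fragment numbers are rough. Lengths were medians of RefSeq-matched GENCODE M21 transcripts, no longer than the locus. Ratio intervals are Clopper-Pearson, pair intervals use the normal approximation on a log scale, and none covers variation between cultures. The code was tested on simulated data.

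The members, gene lists and alternatives were chosen with earlier results of these data known. Named were the members, their cluster neighbours, listed imprinted genes past 2-fold, the 4 relatives and pathway genes of largest change, and rows overlapping a member. Igf2r, which overlaps Airn, and the pairs of genes set in ratio were chosen after their values were seen. Software was matplotlib 3.10.9, scipy 1.17.1, pandas 2.3.3 and numpy 2.4.6 under Python 3.11.15.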

Additional observations from a re-analysis of the deposited data

How the results depend on the processing

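No paired analysis was possible because each genotype has 1 library. The count of members 2-fold higher was 0 under each alternative tried except a 1.5-fold limit, where it was 3. The count 2-fold lower was 0, and 1 when centred on the median gene, with upper-quartile scaling or at a 1.5-fold limit, and 2 by the authors' lists or when centred without a pseudocount (chosen after seeing the data). The median log2 ratio of the members, 0.30, became -0.12 when centred, -0.17 with upper-quartile scaling and -0.17 when centred without a pseudocount, by construction of these shifts. In the same 3 settings H19 stood at -0.13, -0.21 and -0.21, Meg3 at -0.0835, -0.13 and -0.14, Cdkn1c at -0.11, -0.0493 and -0.0674, and Grb10 at -0.14, -0.20 and -0.21. Peg10, Plagl1 and Peg3 stayed below 0 and Dlk1, Mest and Ndn above 0 under the alternatives run, with Peg10 between -1.49 and -0.81.

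For the other imprinted genes, the count 2-fold higher was 2, and 4 with a pseudocount of 0.1, 5 without one, 0 when centred, with upper-quartile scaling or at a mean FPKM of 5, 8 at 1.5-fold and 1 with rows at a shared locus summed. The count 2-fold lower was 0, and 1 by the authors' lists or when centred without a pseudocount. Their median, 0.45, was 0.60 with a pseudocount of 0.1, 0.62 without one, 0.0278 when centred, 0.0774 with upper-quartile scaling, 0.27 without a filter, 0.56 at a mean FPKM of 5 and 0.12 when centred without a pseudocount. Depth limits low genes, with about 109 fragments for Cdkn1c, 29 for Mirg and 21 for Phlda2 in WT. With 1 library per genotype no library could be left out.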
